A study of Mus musculus with 3 samples.

Results

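The cells described here were smooth muscle cells of the mouse ascending aorta that carried transcripts of Vcam1, a cell-surface adhesion molecule for leukocytes, or of Spp1 (osteopontin), a secreted matrix glycoprotein that binds integrins and Cd44. They were selected on measured values in droplet single-cell RNA-seq, in which each transcript molecule is counted once as a UMI. A cell was kept when it held 600 to 5000 genes and at most 10% mitochondrial UMIs. Values per cell were UMIs per 10000 UMIs of that cell. The sum of 6 contractile genes (Acta2, Myh11, Tagln, Cnn1, Myl9 and Tpm2) had to reach 150, Dcn had to stay under 10, and Ptprc and Pecam1, markers of leukocytes and endothelium, had to be at 0. Among these gated smooth muscle cells, Vcam1 and Spp1 together had to reach 4, with Rgs5 under 5 and Tnnt2 plus Tcap under 2. The rule chose 221 cells, here called Vcam1 or Spp1 cells, out of 12913 gated cells and 26158 cells that passed the filter. The 5362 gated cells that met the same Rgs5, Tnnt2 and Tcap limits but stayed under 4 for Vcam1 and Spp1 are called the other gated cells.

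All mice were C57BL/6J males killed at postnatal day 45. WT mice carried normal fibrillin-1. The mgR mice were homozygous for the hypomorphic mgR allele of Fbn1, a model of Marfan syndrome with dissecting aneurysm, and the mgR-LOS mice were mgR mice given the angiotensin receptor blocker losartan at 0.6 g/L in drinking water from day 16. Vehicle-treated mutants also existed, and no label tells if the mgR library came from them. Each condition was 1 library made from pooled aortas of several mice. No test between conditions was therefore possible: the intervals given are 95% intervals for counting error and leave out the spread between mice. Intervals of levels and ratios treat UMIs summed over cells as independent, so they leave out the spread between cells too. The WT, mgR and mgR-LOS libraries held 83338726, 123956320 and 121436873 UMIs. The WT and mgR files were written by Cell Ranger 5.0.1 and the mgR-LOS file by 6.0.1, so this difference and losartan cannot be told apart. Between 22 and 46 barcodes were shared by any pair of libraries, and none of them belonged to a Vcam1 or Spp1 cell.

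As background, aortic smooth muscle cells can lose part of their contractile program and take up the production of matrix, adhesion and inflammatory proteins, a state called modulated. Vcam1 in such cells is switched on by cytokine signaling through NF-kB, which binds a short site named kappa B and induces its own inhibitor Nfkbia. Mgp, matrix Gla protein, is a secreted inhibitor of calcification, Timp1 an inhibitor of matrix metalloproteinases, Fn1 fibronectin, and Lgals3 galectin-3.

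The Vcam1 or Spp1 cells numbered 7 in WT, 148 in mgR and 66 in mgR-LOS. They made up 0.246% of gated cells in WT (Clopper-Pearson interval 0.0988 to 0.506, 7 of 2849), 5.13% in mgR (4.36 to 6.00, 148 of 2883) and 0.919% in mgR-LOS (0.712 to 1.17, 66 of 7181). The share was highest in mgR and lowest in WT, and these counting intervals did not overlap. Since Vcam1 and Spp1 chose the cells, the shares are a description. The gated cells of mgR-LOS were shallower, and 936 of them held under 5000 UMIs against 98 in WT and 74 in mgR. These shallow cells were left out, and the rest were thinned to 5000 UMIs, with at least 2 UMIs of Vcam1 or Spp1 required. The share was then 0.327% in WT (9 of 2751), 6.09% in mgR (171 of 2809) and 1.47% in mgR-LOS (92 of 6245), in the same order. The limit on Tnnt2 and Tcap was reached by 47.1% of WT, 52.1% of mgR and 57.0% of mgR-LOS gated cells that reached 4 for Vcam1 and Spp1, and 60.5%, 51.9% and 54.9% of all gated cells. Without the Rgs5, Tnnt2 and Tcap limits the share was 0.597% in WT, 10.9% in mgR and 2.30% in mgR-LOS. In these pools, fewer cells of a kind and a lower recovery of that kind cannot be told apart.

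**Figure D1:**
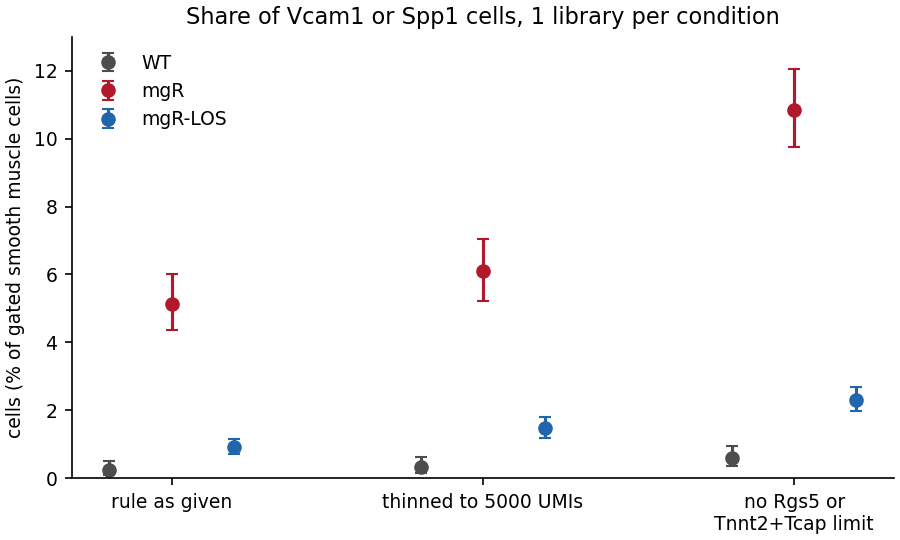
Share of gated smooth muscle cells (%) that were Vcam1 or Spp1 cells in each library, under the rule as given, after thinning to 5000 UMIs, and without the limits on Rgs5 and Tnnt2+Tcap; bars are exact 95% binomial intervals for counting error, 1 library per condition. In all 3 settings mgR is highest (5.13%, 6.09% and 10.9%) and WT lowest.

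Depth differed little between the Vcam1 or Spp1 cells and the other gated cells of their library. The median UMIs per cell were 15005, 16096 and 9635.5 in WT, mgR and mgR-LOS, against 14650, 15390 and 8505.5 in the other gated cells. The 7 WT cells were a thin sample: 2 of them held 974 and 2297 UMIs with 1 and 2 UMIs of Vcam1. Under 3 UMIs of the rule genes were found in 2 WT, 10 mgR and 3 mgR-LOS cells. An artificial-doublet score called 1 of 7, 21 of 148 and 8 of 66 of them doublets (14.3%, 14.2% and 12.1%), against 6.09%, 10.7% and 11.4% of the other gated cells. The part of doublets in the levels below was not tested beyond the removal given in the closing section.

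Vcam1 marked nearly all of the cells and Spp1 few. Vcam1 (chr3:116109949-116129688, GRCm38, minus strand) stood at 1138, 1386 and 1413 CPM (UMIs of the gene per 1000000 UMIs) in the summed counts of the WT, mgR and mgR-LOS cells, against 6.98, 38.4 and 19.2 CPM in the other gated cells. Spp1 (chr5:104435118-104441050, plus strand) stood at 307, 238 and 18.8 CPM, against 0.587, 2.42 and 0.441 CPM. These 2 genes were chosen by the rule. The Spp1 level rested on few cells: all 27 WT UMIs lay in 1 cell, 1 cell held 194 of the 565 UMIs in mgR, and 3 cells held the 12 UMIs in mgR-LOS. Vcam1 was spread more evenly, with 144 of 148 mgR cells and all 66 mgR-LOS cells holding a UMI.

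The other 4 markers were not part of the rule. They were listed with earlier results of these data known, so their levels are a description too. Mgp (chr6:136872435-136875823, minus strand) was the most abundant of them, at 49500.2, 59420.0 and 34620.4 CPM in WT, mgR and mgR-LOS, against 4534, 17697 and 9133 CPM in the other gated cells, a ratio of 10.9, 3.36 and 3.79. Per cell, the median Mgp was 88.5, 363 and 185 per 10000 UMIs, against 31.5, 89.1 and 58.7. In WT 3 of the 7 cells reached 200 per 10000, at 1098, 740 and 375, and the lowest held 8.71. The WT level and its ratio thus rested mostly on these 3 cells. The groups overlapped: Mgp reached 200 per 10000 in 66.9% of the mgR cells and in 25.1% of the other gated cells of mgR. Timp1 (chrX:20870166-20874735, plus strand) stood at 56.9, 231 and 105 CPM against 15.8, 47.7 and 15.1 CPM, and the WT value rested on 5 UMIs. Fn1 stood at 1229.5, 3401 and 1427 CPM against 526, 1865 and 625 CPM. Lgals3 was closest between the populations, at 149 against 107 CPM in mgR and 83.2 against 58.7 CPM in mgR-LOS, and in WT the cells held only 2 of its UMIs. All 4 stood higher in both mutant libraries. In WT, Lgals3 stood lower, at 22.8 CPM (2.76 to 82.3) against 57.4 CPM. The WT value of Fn1 rested on few cells: 1 cell held 47 of 108 UMIs, and the median was 4.35 per 10000 against 3.84 in the other gated cells.

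**Figure D2:**
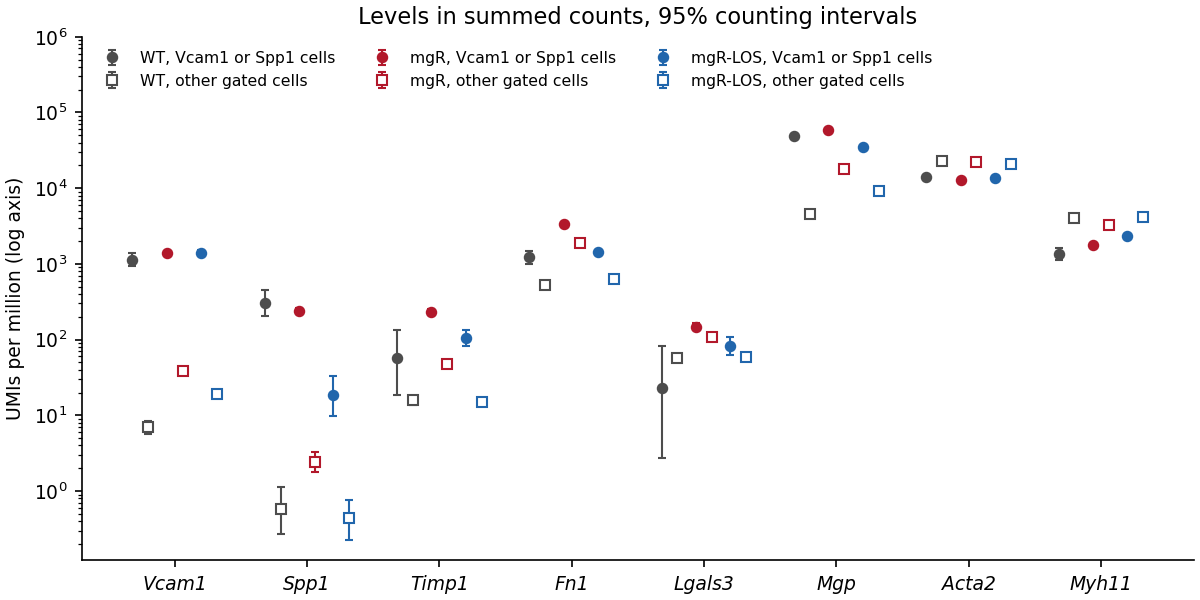
Levels (CPM, log axis) in the summed counts of Vcam1 or Spp1 cells (filled circles) and of the other gated cells (open squares) of each library, with exact 95% Poisson intervals. Mgp, Timp1 and Fn1 are higher and Acta2 and Myh11 lower in the Vcam1 or Spp1 cells of all 3 libraries; Vcam1 and Spp1 chose the cells.

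Fbn1, the gene that carries the mutation, was checked against the labels. In the other gated cells it stood at 255 CPM in WT, 72.9 in mgR and 70.3 in mgR-LOS. In the Vcam1 or Spp1 cells it stood at 194 CPM (113 to 309.9), 95.4 (83.4 to 109) and 72.2 (52.9 to 96.3). Both mutant libraries lay under WT in both populations.

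Contractile genes stood lower than in the other gated cells. The 6 gate genes were part of the selection, so every cell had to hold at least 150 of their UMIs per 10000. Acta2, smooth muscle actin, stood at 13901, 12869 and 13608 CPM in WT, mgR and mgR-LOS against 22935, 22334 and 20833 CPM in the other gated cells. Myh11, smooth muscle myosin heavy chain, stood at 1355, 1772 and 2342 CPM against 4093, 3267 and 4189 CPM, a ratio of 0.331, 0.542 and 0.559. Cnn1 (calponin) stood at 934, 940.0 and 912 CPM against 2005, 1692 and 1558 CPM. Tagln was the least reduced of the 6 gate genes, with ratios of 0.89, 0.754 and 0.857. Acta2 per cell overlapped between the populations, with a median of 116 per 10000 in mgR (29.7 to 349) against 217 (26.9 to 560).

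To describe gene groups, genes were counted at 50 CPM or more in either population of each library, and called at 1.5-fold in both mgR and mgR-LOS, a size chosen after the data were seen and after a smaller fold had been tried. Of 2661 genes, 2.25% were higher and 1.73% were lower. Of the 60 higher genes, 34 stood under 50 CPM in the other gated cells of at least 1 of these libraries and entered there through the cells in which they were high. Against this background, 4 of the 6 gate genes (Acta2, Myh11, Cnn1 and Myl9) and 3 of 17 counted further contractile and cytoskeletal genes of a list of 19 (Synpo2, Pdlim3 and Mylk4) were lower, and none was higher. None of the 17 had a ratio above 1 in mgR. Their median ratios were 0.577 and 0.619 for the gate genes and 0.654 and 0.703 for the further genes in mgR and mgR-LOS, against 0.974 and 0.982 over all genes. Synpo2, a partner of actin bundles at the Z-line, stood at 149 against 289 CPM in mgR and 240.1 against 436 CPM in mgR-LOS. Myocd, the coactivator that drives contractile genes, stood at 123 against 175 CPM in mgR and 155 against 185 CPM in mgR-LOS.

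At a 2-fold threshold in all 3 libraries, 11 of 2550 genes were higher (0.431%) and 1 was lower (0.0392%). The 11 were Cd44, Thbs1, Foxs1, Tmem176b, Clec2d, Mgp, Nrgn, Phlda1, Irf1, Nfkbia and Timp1, and the gene that was lower was Fbxl22, an F-box protein of the muscle Z-line. With the mgR and mgR-LOS libraries alone, 22 of 2661 genes were higher (0.827%) and 2 lower (0.0752%). The filter takes part in these counts: 17 of the 22, and 9 of the 11, stood under 50 CPM in the other gated cells of at least 1 of the libraries compared and entered there through the cells in which they were high. The counts are a description and support nothing further. Among those added were Ptgs2, Gbp2, Cxcl1, Tmem176a, Fbln2, Mt2, Slco2a1, Lum, Nfkbiz and Iigp1, genes singled out after their values were seen. Many WT ratios rested on 1 cell. In WT all 8 UMIs of Irf1, all 7 of Tmem176b, 30 of 34 of Nfkbia and 21 of 23 of Phlda1 lay in 1 cell. The mutant libraries carry the description for these genes. Without the top cell, 3 of the 11 fell just or clearly under 2-fold in 1 mutant library. These were Cd44 in mgR (115 against 60.0 CPM), Clec2d in mgR-LOS (54.5 against 27.4 CPM) and Nrgn in mgR-LOS (69.8 against 41.4 CPM). Foxs1, a forkhead transcription factor of perivascular cells, stood at 148, 61.2 and 64.4 CPM in WT, mgR and mgR-LOS against 23.9, 27.0 and 20.8 CPM. Among the 10 lowest ratios were those of 3 gate genes (Myh11, Myl9 and Cnn1), Synpo2, Fbxl22, Plcb4, Sparcl1, Ptprz1 and Pcp4l1. Plcb4, a phospholipase that relays receptor signals to calcium, stood at 159, 167 and 213 CPM against 443, 322 and 421 CPM.

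**Figure D3:**
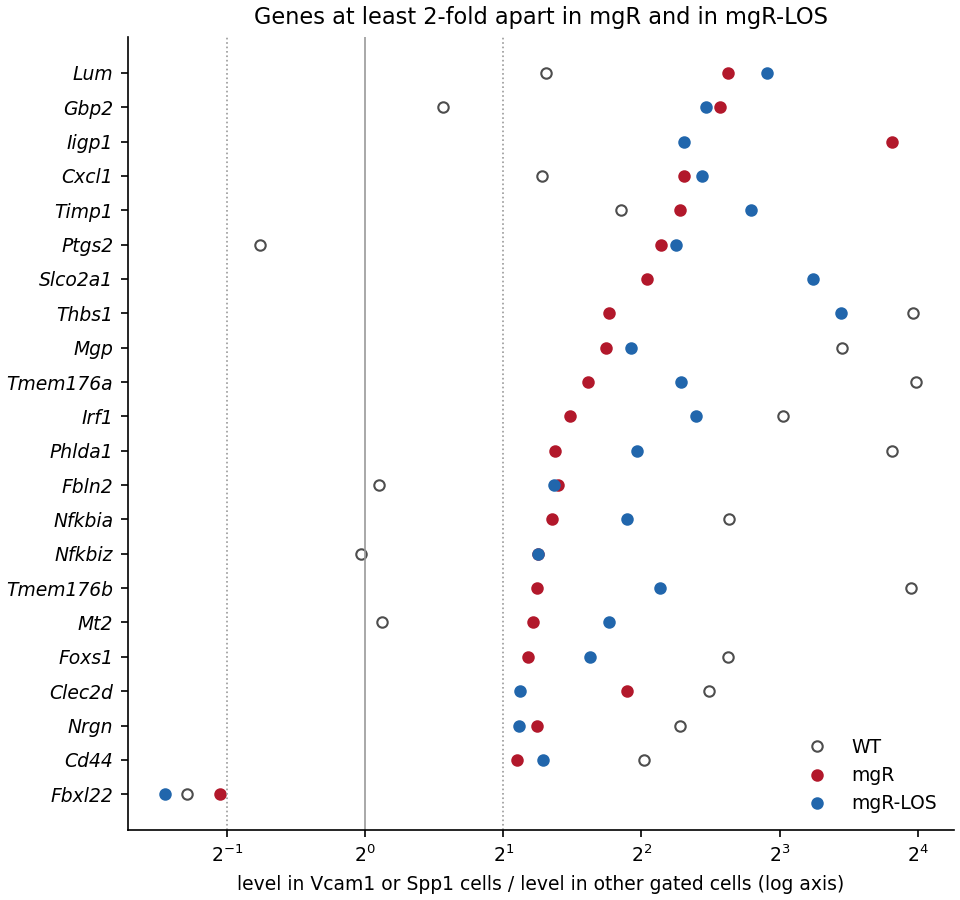
Level in Vcam1 or Spp1 cells divided by the level in the other gated cells of the same library (log axis) for 22 of the 24 genes at least 2-fold apart in both mgR and mgR-LOS; dotted lines mark 2-fold and WT points are open. Iigp1 and Slco2a1 have no WT point because no UMI was found in the 7 WT cells, and several WT points rest on 1 cell.

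Of 9 listed NF-kB pathway genes, Nfkbia and Nfkbiz were the 2 counted, and both were higher in mgR and mgR-LOS. Nfkbia, the inhibitor that NF-kB induces, stood at 387, 517 and 590.1 CPM in WT, mgR and mgR-LOS against 62.3, 202 and 159 CPM. Nfkbiz stood at 91.1, 239 and 184 CPM against 93.0, 101 and 77.2 CPM, with a WT ratio of 0.979 (0.422 to 1.93). Cxcl1, a neutrophil chemokine, stood at 192 against 38.7 CPM in mgR and 130.3 against 24.0 CPM in mgR-LOS, with 1 UMI in WT. Ptgs2, the inducible cyclooxygenase, stood at 34.2, 371 and 126 CPM against 57.9, 83.9 and 26.3 CPM, and its WT level, the lower of the pair there, rested on 3 UMIs. Of the 17 adhesion molecules, chemokines and cytokines, 3 were counted and 14 were not. Of the 3, Cxcl1 and Cxcl12 were higher, and Cxcl1 passed the filter only through the Vcam1 or Spp1 cells. Icam1, the other main leukocyte adhesion molecule, stayed under the filter at 9.71 CPM in mgR and 25.1 CPM in mgR-LOS.

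Promoters of 3 of these genes are shown because they hold the consensus kappa B site. Each runs from 250 bases before to 50 bases after the RefSeq gene start in GRCm38.p6, 5′ to 3′ on the gene's strand, with matches in capitals. They are Nfkbia (chr12:55492598-55492897, minus strand), Irf1 (chr11:53769764-53770063, plus strand) and Cxcl1 (chr5:90890995-90891294, plus strand).
Nfkbia: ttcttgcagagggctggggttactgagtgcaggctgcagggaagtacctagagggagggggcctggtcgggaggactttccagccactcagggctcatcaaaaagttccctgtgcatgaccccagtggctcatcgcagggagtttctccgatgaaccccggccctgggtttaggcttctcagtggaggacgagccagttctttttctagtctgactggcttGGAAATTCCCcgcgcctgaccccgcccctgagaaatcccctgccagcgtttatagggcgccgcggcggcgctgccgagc
Irf1: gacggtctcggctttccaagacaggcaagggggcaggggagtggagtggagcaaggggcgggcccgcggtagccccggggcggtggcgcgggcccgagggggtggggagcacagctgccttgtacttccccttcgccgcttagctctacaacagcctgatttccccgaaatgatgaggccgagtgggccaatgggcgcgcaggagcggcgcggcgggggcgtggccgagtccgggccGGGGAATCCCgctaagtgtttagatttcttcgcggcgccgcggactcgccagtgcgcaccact
Cxcl1: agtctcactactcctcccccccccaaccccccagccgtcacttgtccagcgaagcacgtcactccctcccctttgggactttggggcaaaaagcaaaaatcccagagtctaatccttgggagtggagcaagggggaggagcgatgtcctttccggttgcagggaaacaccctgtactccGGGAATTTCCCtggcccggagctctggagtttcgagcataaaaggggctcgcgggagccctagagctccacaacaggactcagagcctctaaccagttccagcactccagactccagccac

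Of the 22 genes higher in both mutant libraries together with Vcam1 and Spp1, 15 matched the promoter table, and 4 of these promoters held the consensus kappa B site on either strand, against 4.51% of all 32851 promoters. Vcam1, Mgp and Thbs1 had no entry, and Spp1 and Timp1 held no consensus match. The 4 genes were Cxcl1, Tmem176a, Irf1 and Nfkbia, and the capitals in Cxcl1 are 2 overlapping matches. Another kappa B pattern, which fixes other positions and does not contain the consensus, had been searched first, and it matched 6 of 15 against 18.4% of all promoters. The consensus was taken up after that result was seen, so both are given. The AP-1 motif TGANTCA was found in 2 of 15 against 7.81%, and the CArG box, the site of serum response factor, in 0 of 15 against 1.63%. Among the contractile gate genes, 4 matched the table and 1 of them, Myl9, also held a kappa B site. Of 17 matched promoters of the further contractile genes, 2 (Des and Flna) held the consensus kappa B site and 2 the AP-1 motif, 11.8% each. A match shows only that the letters are present.

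Of 12 listed interferon-responsive genes 6 were counted, and Irf1, Bst2 and H2-K1 were at least 1.5-fold higher in mgR and mgR-LOS. Counted in each library alone, 1 of 6 was at least 2-fold higher in mgR (median ratio 1.58) and 8 of 10 in mgR-LOS (4.02), against 1.39% and 2.42% of all genes counted in these libraries. Of these genes 1 of 6 and 6 of 10 stood under 50 CPM in the other gated cells and were counted only through the cells in which they were high. In mgR-LOS single cells held much of some genes, such as 58 of 111 Isg15 UMIs. Irf1, a transcription factor induced by interferon-gamma and NF-kB, stood at 149 against 53.5 CPM in mgR and 137 against 26 CPM in mgR-LOS. H2-K1, part of MHC class I, stood at 200.1 against 111 CPM in mgR and 185 against 71.9 CPM in mgR-LOS. Its partner B2m, which was not called, stood at 834 against 578 CPM in mgR. Gbp2 and Iigp1, interferon-induced GTPases, were uneven: 1 cell held 62 of 155 Gbp2 UMIs and 119 of 196 Iigp1 UMIs in mgR. In mgR-LOS 1 cell held 22 of 35 Gbp2 UMIs, and without it the level was 20.8 CPM, under the filter. Without the top cell Iigp1 fell from 82.7 to 32.7 CPM in mgR and from 69.1 to 30.5 CPM in mgR-LOS, still above the 5.90 and 13.9 CPM of the other gated cells.

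Among the counted matricellular proteins and receptors, Thbs1 and Cd44 had the highest ratios to the other gated cells in mgR and mgR-LOS. Thbs1, thrombospondin-1, stood at 296, 354 and 496 CPM in WT, mgR and mgR-LOS against 18.9, 104 and 45.5 CPM, and was carried by part of the cells only. It reached 4 per 10000 in 21.6% of mgR and 15.2% of mgR-LOS cells, against 5.16% and 2.64% of the other gated cells. Of 8 counted matricellular proteins, Thbs1 was higher. In the other gated cells of mgR-LOS it stood under 50 CPM, so it was counted there only through the Vcam1 or Spp1 cells. Of 7 counted integrins and receptors for Vcam1 and Spp1, Cd44, which binds osteopontin and hyaluronan, was higher and none was lower. Cd44 stood at 125, 129 and 97.3 CPM against 30.9, 60.0 and 39.8 CPM. In mgR-LOS Cd44 too was counted only through the Vcam1 or Spp1 cells. Itga8, the partner of Itgb1 in a receptor for osteopontin and fibronectin, stood at 883 against 1219.8 CPM in mgR and 851 against 1189.7 CPM in mgR-LOS. Itga4, part of the classical receptor for Vcam1 on leukocytes, stood at 21.9 against 17.2 CPM in mgR.

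Most collagens stood close between the populations, and elastin did in mgR-LOS. Of 13 counted collagen chains none was at least 1.5-fold higher or lower. The median ratios, over the 14 chains counted in mgR and the 13 in mgR-LOS, were 0.983 and 1.03. Col8a1, not counted in mgR-LOS, was an exception, at 149 against 47.5 CPM in mgR and 45.5 against 13.7 CPM in mgR-LOS. Col3a1 stood at 2931 against 3151 CPM in mgR and 2349.6 against 2383 CPM in mgR-LOS. Eln, elastin, stood at 10081 against 7468 CPM in mgR and 4721 against 4687 CPM in mgR-LOS. Of 14 counted elastic fiber genes, Fbln2 was higher and none was lower. In mgR-LOS 1 cell held 19 of 40 Fbln2 UMIs, and without it the level was 33.9 CPM against 24.3 CPM, under the call. Fbln2 passed the filter in that library only through the Vcam1 or Spp1 cells. Of 8 counted proteoglycans, Lum and Dcn were higher, with Lum at 88.2 against 14.3 CPM in mgR and 223 against 29.7 CPM in mgR-LOS. Lum in both libraries, and Dcn in mgR, stood under 50 CPM in the other gated cells and were counted through the Vcam1 or Spp1 cells. Since Dcn was limited by the gate, its level is bounded by the rule. Of 11 counted proteases and inhibitors, Timp1 was higher and none was lower. Timp1 stood under 50 CPM in the other gated cells of both libraries and was counted through the Vcam1 or Spp1 cells.

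TGF-beta and renin-angiotensin genes are the pathways most often named for this disease. Of 8 counted TGF-beta genes, the ligand Tgfb1 was at least 1.5-fold higher and none was lower. It passed the filter only through the Vcam1 or Spp1 cells. It stood at 59.1 against 33.9 CPM in mgR and 87.9 against 30.4 CPM in mgR-LOS. Ace, which makes angiotensin II, was the 1 counted renin-angiotensin gene and was at least 1.5-fold higher, at 218 against 126 CPM in mgR and 135 against 84.4 CPM in mgR-LOS. Agtr1a, a receptor that losartan blocks, had 2 UMIs in the mgR cells and none in the WT or mgR-LOS cells, too few to compare. Agtr1b, of the same list, had 2 UMIs in the mgR cells that carried Vcam1 without Spp1. Of 16 osteochondrogenic genes 3 were counted in both mutant libraries and none was called. Tnfrsf11b, osteoprotegerin, was counted in mgR only, at 123 against 32.3 CPM, and stood at 45.5 against 24.9 CPM in mgR-LOS. Acan, the cartilage proteoglycan aggrecan, stood at 196 against 176 CPM in mgR and 104 against 76.0 CPM in mgR-LOS. Sox9, the chondrogenic regulator, stood at 12.2 CPM in mgR and 6.28 CPM in mgR-LOS, and 16 of its 17 WT UMIs lay in 1 cell. No cell cycle gene reached the filter in mgR or mgR-LOS.

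Of the remaining lists, 1 of 8 counted regulators of smooth muscle state (Foxc2) was at least 1.5-fold higher, and none of 5 growth factor, 3 lipid and 11 immediate early and heat shock genes was called. Of 6 counted further markers of modulated smooth muscle, Lum and Fbln2 were higher and Sparcl1 was lower.

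Summed macrophage markers were far below their level in macrophages, and endothelial markers were near 0. Macrophage markers summed to 34.2, 51.1 and 97.3 CPM in the WT, mgR and mgR-LOS cells, with Cd74 the most abundant, against 18.7, 77.5 and 103 CPM in the other gated cells and 40395, 33835 and 32052 CPM in macrophages. In mgR-LOS, Cd74 stood at 56.5 against 23.2 CPM, a ratio of 2.43 (1.69 to 3.4), and 1 cell held 15 of its 36 UMIs. The part of macrophage RNA in the other levels was not tested beyond the removal of cells with such UMIs. Endothelial markers summed to 0, 2.11 and 6.28 CPM. Ptprc and Pecam1 were at 0 by the rule. Fibroblast markers summed to 6876, 8157 and 6625 CPM, with Col3a1 the most abundant, against 6968, 7613 and 6059 CPM in the other gated cells and 49509.9, 44391 and 54993 CPM in fibroblasts. Of 6 counted fibroblast markers, Lum and Dcn were at least 1.5-fold higher. Dcn stood at 59.1 against 35.7 CPM in mgR and 127 against 72.5 CPM in mgR-LOS, and without its top cell the mgR level was 50.4 CPM, under the call. The part of fibroblast RNA in these levels was not tested. Microvascular mural markers summed to 444, 525 and 574 CPM against 510.2, 515 and 489.6 CPM. Cardiomyocyte markers, limited by the rule, summed to 56.9, 47.7 and 56.5 CPM. Red cell genes summed to 22.8, 225 and 28.3 CPM against 6.59, 22.2 and 135 CPM, so mgR-LOS went the other way. In mgR 1 cell held 323 of the 399 Hbb-bs UMIs. No gene of the macrophage, endothelial, cardiomyocyte, Schwann cell or mesothelial lists reached the filter in both mutant libraries.

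Levels were also read along the scale that chose the cells, as a description. In mgR, Mgp stood at 13975 CPM in cells without Vcam1 or Spp1, 38898 CPM in cells at 2 to 4 per 10000, just outside the rule, 48047 CPM at 4 to 8, just inside, and 74745 CPM at 16 and over. In mgR-LOS the same values were 8452, 22846, 27387 and 53809 CPM. The 6 gate genes together went the other way, from 56151 CPM at 0 to 40754 CPM at 2 to 4, 40109 CPM at 4 to 8 and 27317 CPM at 16 and over in mgR. The other markers were less regular across the threshold. From 2 to 4 to 4 to 8, Timp1 stood at 123 and 121 CPM in mgR and at 55.4 and 46.9 CPM in mgR-LOS. In the same bins Fn1 stood at 2967 and 2652 CPM and Lgals3 at 188 and 131 CPM in mgR. In mgR-LOS they stood at 1171 and 1491 CPM and at 65.0 and 76.2 CPM. Such sums do not show how single cells are spread within a bin. The bins at 2 to 4 and 4 to 8 held 70 and 69 cells in mgR and 75 and 33 in mgR-LOS. The bins at 16 and over held 48 mgR and 15 mgR-LOS cells.

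**Figure D4:**
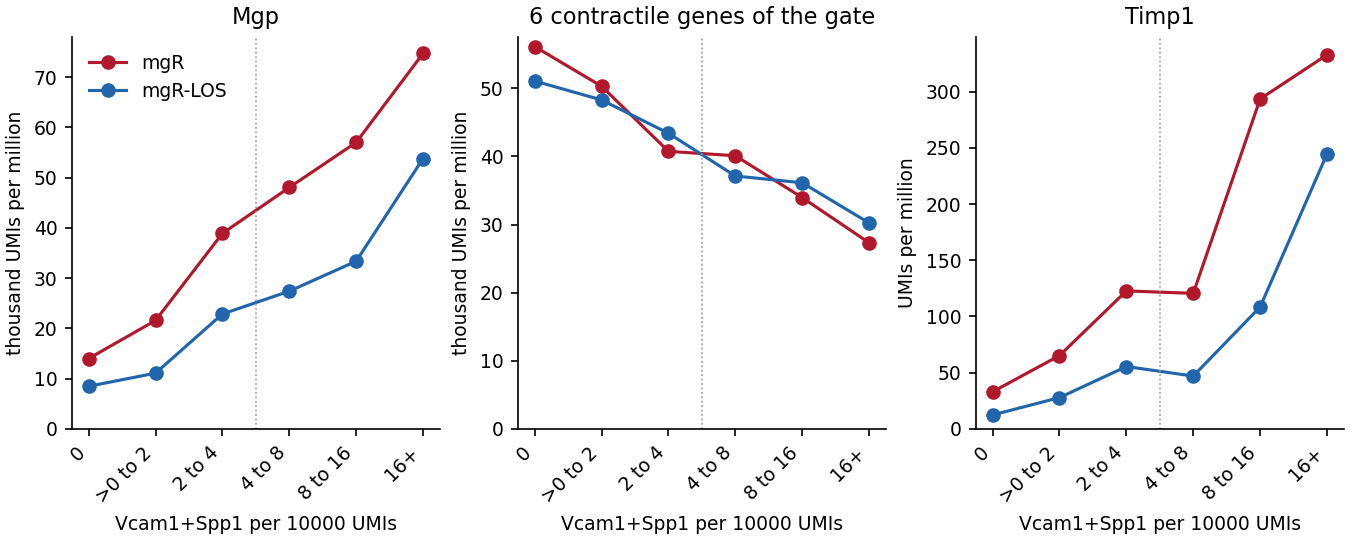
Levels of Mgp, of the 6 contractile gate genes together and of Timp1 (CPM, at the scale each vertical axis names) in gated cells under the Rgs5 and Tnnt2+Tcap limits, binned by Vcam1+Spp1 per 10000 UMIs, in mgR and mgR-LOS; the dotted line is the threshold of 4. Mgp is higher and the contractile genes are lower from bin to bin in both libraries, on both sides of the line. Timp1 is not higher at 4 to 8 than at 2 to 4 in either library, and is highest at 16 and over. WT is left out because its bins from 2 upward hold 2 to 4 cells.

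Sost, a secreted Wnt antagonist, Acan and Susd5 were found in most gated cells. Together they reached 4 per 10000 in 74.3% of the mgR cells against 91.2% of the other gated cells of mgR, and in 48.5% against 77.2% in mgR-LOS. Sost stood at 729, 524 and 342 CPM in WT, mgR and mgR-LOS against 848, 818 and 696 CPM.

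Most of the cells carried Vcam1 without Spp1. This held for 6 of 7 cells in WT, 119 of 148 in mgR and 63 of 66 in mgR-LOS. Cells with both numbered 1, 25 and 3, and cells with Spp1 alone 0, 4 and 0. A cell without a UMI of Spp1 may still express it, so these classes depend on depth. In mgR the cells with both were deeper (median 22610 UMIs) than those with Vcam1 alone (15555), and the 4 with Spp1 alone were shallow (1695). After thinning to 5000 UMIs, the share with both in mgR went from 16.9% to 9.94%. At 100 CPM, with 5 CPM added to both levels, 1 of 1469 genes was at least 2-fold higher in the mgR cells with both than in those with Vcam1 alone (0.0681%) and 7 were at least 2-fold lower (0.477%). Timp1 was the gene that was higher, at 408 against 179 CPM. The 7 include the globin gene Hbb-bs, at 5.47 against 199.6 CPM, of which 1 cell held most UMIs. Iigp1 stood at 5.47 against 106 CPM, and 1 cell held 119 of its 192 UMIs in the cells with Vcam1 alone. These were followed by Col14a1 at 49.2 against 160 CPM and Cxcl1 at 82.0 against 225 CPM. These genes were singled out after their values were seen.

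Levels within the cells were compared between mgR-LOS and mgR. At a 2-fold threshold, 1.86% of 2951 genes were higher in mgR-LOS and 1.15% were lower, against 1.18% and 0.937% in the other gated cells. The 66 mgR-LOS cells held 637139 UMIs, against 27195831 in the other gated cells. The part of this smaller sample in the shares was not tested. The 8 lowest genes at 100 CPM were Col8a1, Ptgs2, Tnfrsf11b, Ltbp2, Fn1, Plod2, Lox and Timp1. Of the listed groups, 4 of 14 counted elastic fiber genes, 1 of 14 collagen chains and 1 of 8 matricellular proteins were at least 2-fold lower in mgR-LOS, and none was higher. In the other gated cells these counts were 2 of 15, 0 of 13 and 3 of 8. Of 9 counted proteoglycans 3, and of 10 interferon-responsive genes 4, were at least 2-fold higher in mgR-LOS and none was lower. The filter takes part here too, since only 8 proteoglycans and 6 interferon-responsive genes were counted in mgR. Any others, such as Isg15, passed the filter only through the mgR-LOS cells, in which they were high. In the other gated cells 3 of 8 proteoglycans were higher and 1 lower, and of 5 interferon-responsive genes none was higher and 1 lower. Of 6 counted fibroblast markers 2 were at least 2-fold higher in mgR-LOS, and 1 of 5 in the other gated cells. Lum and Dcn are on both the proteoglycan and the fibroblast list, and Dcn was limited by the gate. The part of fibroblast RNA in this change was not tested. Fn1 stood at 3401 CPM in mgR and 1427 CPM in mgR-LOS, a ratio of 0.42 (0.391 to 0.449), and in the other gated cells at 1865 and 625 CPM. Lox, lysyl oxidase, stood at 541 and 246 CPM, and at 447 and 239 CPM in the other gated cells. Col8a1, a short-chain collagen of injured vessels, stood at 149 and 45.5 CPM, and at 47.5 and 13.7 CPM in the other gated cells. Timp1 stood at 231 and 105 CPM. Tnfrsf11b, osteoprotegerin, stood at 123 and 45.5 CPM, and at 32.3 and 24.9 CPM in the other gated cells. For each of these genes the other gated cells were also lower in mgR-LOS.

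The 8 highest genes in mgR-LOS over mgR were Isg15, Ccl2, Zbtb16, Apoe, Abi3bp, Hk2, Lum and Atp1b1. Isg15, an interferon-induced ubiquitin-like protein, stood at 9.29 CPM in mgR and 174 CPM in mgR-LOS, where 1 cell held 58 of 111 UMIs. Ccl2, a monocyte chemokine, stood at 11.8 and 110 CPM, and 1 mgR-LOS cell held 31 of its 70 UMIs. For Abi3bp 1 mgR-LOS cell held 33 of 78 UMIs. Without it the level was 72.0 CPM, under the 100 CPM used for this ranking. Apoe, a lipid-binding protein, stood at 151 and 651 CPM, and at 104 and 427 CPM in the other gated cells. Zbtb16, a glucocorticoid-responsive transcription factor, stood at 12.7 and 107 CPM, and at 15.7 and 132 CPM in the other gated cells. The contractile genes were close between the 2 libraries, with a median ratio of 1.02 for the gate genes and 1.07 for the further contractile genes, against 1.01 over all genes.

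**Figure D5:**
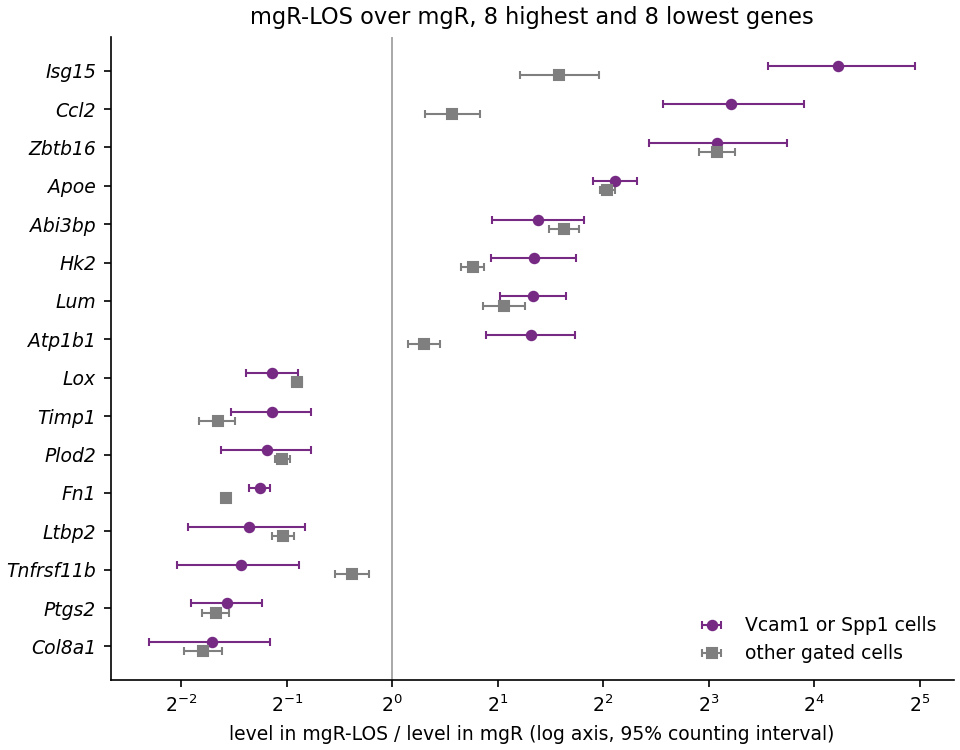
Level in mgR-LOS divided by the level in mgR (log axis) for the 8 highest and 8 lowest genes, in Vcam1 or Spp1 cells (circles) and in the other gated cells (squares), with exact 95% counting intervals. Both populations lie on the same side of 1 for all 16 genes; Isg15, Ccl2 and Atp1b1 have the widest gap between the populations above 1, and Tnfrsf11b below it.

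The comparison of mgR with WT is limited by the 7 WT cells. At a 2-fold threshold, 8.63% of 3083 genes were higher in mgR and 8.17% lower in the Vcam1 or Spp1 cells, against 1.52% and 1.8% in the other gated cells. These larger shares go with the thin WT sample, in which 1 UMI is worth 11.4 CPM, and the part of that in the shares was not tested. Ptgs2 stood at 34.2 CPM in WT (3 UMIs) and 371 CPM in mgR, a ratio of 10.9 (3.7 to 52.7), and at 57.9 and 83.9 CPM in the other gated cells. Fn1 stood at 1229.5 and 3401 CPM, and at 526 and 1865 CPM in the other gated cells. Cxcl1 stood at 11.4 CPM in WT, which was 1 UMI, and 192 CPM in mgR. Serpinb6b and Efemp2 had no UMI in WT and 139.7 and 108 CPM in mgR. Of the lowest genes in mgR over WT, Cytl1, Sox9 and Cxcl10 rested on 1 WT cell each, which held 20 of 20, 16 of 17 and 14 of 14 UMIs. Wif1, a secreted Wnt inhibitor, stood at 228 CPM in WT and 21.1 CPM in mgR, and at 186 and 32.7 CPM in the other gated cells.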

How the data were processed

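Ascending aortas were pooled per condition, dissociated and loaded on a 10x Genomics Chromium. The authors deposited UMI count matrices made with Cell Ranger, per the file headers (5.0.1 for WT and mgR, 6.0.1 for mgR-LOS; the processing notes name 6.0.1 and mm10); these are raw counts of 32285 genes in 7858, 10657 and 14663 barcodes (WT, mgR, mgR-LOS). From them, UMIs were summed over cells and given as CPM with exact Poisson intervals, shares with Clopper-Pearson intervals and ratios with exact conditional binomial intervals, all at 95% and for counting error only (scipy 1.17.1). With 1 library per condition no test was run. The members and gene lists were chosen with earlier results of these data known. Named genes were the markers with Fbn1, the 2 to 4 most abundant genes of each list and any past 2-fold in all 3 libraries, the 10 highest and 10 lowest ratios over the 3 libraries (at 50 CPM), and the 8 highest and 8 lowest ratios of mgR over WT and of mgR-LOS over mgR (at 100 CPM), without Vcam1, Spp1, mitochondrial, ribosomal protein, globin, Xist and Y-linked genes and unnamed gene models. Some genes that met these rules or a 2-fold call are not reported here. Others named were chosen after their values were seen. Doublets were scored by nearest neighbors to artificial doublets and kept. The ratio and its interval were tested on simulated Poisson counts without a spread between cells. That is the model the interval assumes, so it cannot tell how the intervals hold where single cells carry many UMIs. Alternatives are given in the closing section.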

Additional observations from a re-analysis of the deposited data

Results flagged for a closer look

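Some genes stood higher in one library of a pair in the Vcam1 or Spp1 cells and lower in the other gated cells, or the reverse. They are listed where both ratios were at least 1.5-fold. With 1 library per condition the difference between the populations was not tested. The values are ratios of mgR over WT, given first for the Vcam1 or Spp1 cells. Cxcl10 stood at 0.140, against 25.3 in the other gated cells. Cytl1 stood at 0.0519, against 3.26 in the other gated cells. Klf4 stood at 0.664, against 1.62 in the other gated cells. Phlda1 stood at 0.395, against 2.13 in the other gated cells. Tnfaip3 stood at 0.375, against 3.71 in the other gated cells. In WT 1 cell held 20 of 20 Cytl1, 14 of 14 Cxcl10, 31 of 32 Klf4, 21 of 23 Phlda1 and 9 of 9 Tnfaip3 UMIs, so the WT level of each rests on 1 cell.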

How the results depend on the processing

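The order of the share of Vcam1 or Spp1 cells, mgR above mgR-LOS above WT, held in 15 of 15 alternatives. The share in WT, 0.246% as reported, was 0.527% with no Tnnt2+Tcap limit, 0.445% (2 of 449 cells) with at most 5% mitochondrial UMIs and 0.386% with Vcam1+Spp1 at least 2. The share in mgR, 5.13% as reported, was 8.80% with at most 5% mitochondrial UMIs, 3.14% with contractile sum at least 300, 7.56% with Vcam1+Spp1 at least 2, 2.74% with Vcam1+Spp1 at least 8, 10.7% with no Tnnt2+Tcap limit and 6.09% with thinning to 5000 UMIs. The share in mgR-LOS, 0.919% as reported, was 1.18% with at most 5% mitochondrial UMIs, 0.600% with contractile sum at least 300, 1.96% with Vcam1+Spp1 at least 2, 0.460% with Vcam1+Spp1 at least 8, 2.17% with no Tnnt2+Tcap limit and 1.47% with thinning to 5000 UMIs. The count of genes higher in the Vcam1 or Spp1 cells of all 3 libraries, 11 as reported, was 7 with Dcn under 5, 6 with Vcam1+Spp1 at least 2, 31 with a filter at 20 CPM and 4 with a filter at 100 CPM. The count of genes lower in the Vcam1 or Spp1 cells of all 3 libraries, 1 as reported, was 13 with at most 5% mitochondrial UMIs, 2 with up to 7000 genes per cell or removal of called doublets or removal of cells with a macrophage UMI or CPM without mitochondrial, ribosomal and globin genes or the mean over cells or a filter at 20 CPM or the deepest cell of each library left out, 4 with contractile sum at least 100, 0 with contractile sum at least 300 or Vcam1+Spp1 at least 2 or no Tnnt2+Tcap limit and 9 with Vcam1+Spp1 at least 8. The count of genes higher in mgR than in WT, 266 as reported, was 781 with at most 5% mitochondrial UMIs, 138 with no Tnnt2+Tcap limit, 529 with the mean over cells, 968 with a filter at 20 CPM and 93 with a filter at 100 CPM. The count of genes lower in mgR than in WT, 252 as reported, was 1698 with at most 5% mitochondrial UMIs, 127 with Vcam1+Spp1 at least 2, 416 with Vcam1+Spp1 at least 8, 65 with no Tnnt2+Tcap limit, 396 with CPM without mitochondrial, ribosomal and globin genes, 818 with the mean over cells, 912 with a filter at 20 CPM and 81 with a filter at 100 CPM. The count of genes higher in mgR-LOS than in mgR, 55 as reported, was 121 with at most 5% mitochondrial UMIs, 27 with Vcam1+Spp1 at least 2, 112 with Vcam1+Spp1 at least 8, 86 with removal of cells with a macrophage UMI, 22 with no Tnnt2+Tcap limit, 217 with a filter at 20 CPM and 25 with a filter at 100 CPM. The count of genes lower in mgR-LOS than in mgR, 34 as reported, was 66 with at most 5% mitochondrial UMIs, 63 with contractile sum at least 300, 69 with Vcam1+Spp1 at least 8, 54 with removal of cells with a macrophage UMI, 124 with a filter at 20 CPM and 20 with a filter at 100 CPM. With called doublets removed, 8 genes were higher in all 3 libraries, and 375 were higher and 342 lower in mgR than in WT. In mgR-LOS against mgR, 54 were then higher and 31 lower. After thinning, mgR cells with Vcam1 alone were 88.9% and cells with both 9.94%. The cause of these changes was not tested. The values without the Tnnt2+Tcap limit or without the deepest cell were added after seeing the data. No paired analysis was possible because each condition was 1 library with no shared replicate. The counts of genes thus depend on the filter and threshold, and those against WT on 7 cells. Depth limits single genes most in WT, where 3 UMIs are worth 34.2 CPM.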
